A study of Drosophila melanogaster with 63 samples.

Results

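The genes term, Sry-alpha, bnk and halo are 4 genes that the fly embryo transcribes around the time its blastoderm becomes cellular. They were taken by the gene symbol of their array rows, and they are 4 of the 9292 named genes with values. Each has 1 array row of its own. A further pair of rows carries Sry-alpha together with Sry-beta or Sry-delta, its neighbours in the genome, and was not used for any of them. Over the 63 arrays those shared rows ranged from -0.43 to 0.53 and from -0.12 to 0.51, a much narrower range than that of the row of Sry-alpha alone, which ran from 1.56 to -2.86.

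In Drosophila melanogaster the first nuclear divisions take place in a shared cytoplasm. Membrane then grows inward between the nuclei at the surface and closes beneath each of them, a process called cellularization that depends on a small set of genes switched on briefly by the embryo itself. Sry-alpha (serendipity alpha) is needed for the actin network at the advancing furrows, and bnk (bottleneck) holds that actin and myosin network open so that it does not constrict too early. The product of halo sets the net direction in which motor proteins carry lipid droplets while cells form. The gene term (terminus) is a blastoderm gene whose transcripts are concentrated towards the posterior and which encodes a potential DNA-binding finger.

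The series followed embryos of 3 genotypes, labelled wild type, eve mutant and ftz mutant, at 2, 3, 6, 7, 8, 9 and 10 h after egg laying. The genes eve and ftz encode pair-rule transcription factors that act in segmentation. Total RNA of the embryos, labelled with Cy3, was hybridised against a common Cy5-labelled reference made from embryos of 0 to 22 h. Each of the 21 genotype-by-time groups has 3 arrays. Mutant stocks were kept over balancer chromosomes marked with GFP, and staged embryos were genotyped before use. The labels name neither the alleles nor the wild type strain, so the mutation and the background of its stock cannot be told apart. Nothing in the labels says that the 3 arrays of a group came from separate collections, so a p-value here measures the spread between these arrays, which may be technical, and their number limits the precision. In RNA from whole embryos, fewer cells that transcribe a gene and less RNA per cell cannot be told apart.

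All values are the deposited ratios of embryo to reference, taken as log2, and differences are in log2 units. The direction is likely embryo over reference: in wild type the median of 11 maternal transcripts was -0.39 at 2 h and -1.05 at 10 h, and that of 9 late differentiation genes was -1.95 at 2 h and -0.95 at 10 h. Arrays of one group correlated at 0.51 to 0.953 over all rows (median 0.829). The eve transcript was lower in eve mutants than in wild type at 2 h (difference -1.71) and over 6 to 10 h (-0.50), but not at 3 h (0.21, adjusted p = 0.499 in limma), so those arrays are called here the arrays labelled eve at 3 h. The ftz transcript differed from wild type in ftz mutants by -0.16 at 2 h, -0.21 at 3 h and 0.03 over 6 to 10 h, with no adjusted p under 0.05. Each array was also placed on the wild type profile of all features without the 4 genes, by the time at which its correlation was highest. The eve arrays at 2 h stood apart, with a highest r of 0.550 to 0.614 against 0.905 to 0.930 for wild type and 0.777 to 0.812 for ftz at 2 h. Slide numbers in the sample titles form 9 runs of consecutive numbers, which were tried as a term in the model. Of the 47 numbers, 16 occur on 2 arrays, so the numbers do not identify single slides and a run may join slides of more than 1 series. The arrays labelled eve at 3 h share their run only with a wild type array of 10 h. The eve arrays at 2 h share theirs only with wild type arrays of 6 to 10 h. Slide runs as a term therefore cannot separate slides from the early eve differences.

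All 4 genes were at their highest wild type level at 2 h and fell steeply by 3 h. On the 3 wild type arrays at 2 h, Sry-alpha stood at 1.31, 1.21 and 1.44, and at 3 h at -0.71, -0.77 and -0.84. For bnk the wild type values were 0.31, 1.12 and 1.12 at 2 h and -1.08, -1.02 and -1.10 at 3 h. The corresponding halo values were 1.38, 1.50 and 1.46, then -0.55, -0.23 and -0.50. Every 2 h array of these genes lay above zero and above every 3 h array. The share of all features with such an order between times was not computed, so these orders, here and below, describe the arrays only. The gene term followed the same course, at 1.32, 1.40 and 1.55 at 2 h and -0.53, -1.21 and -0.79 at 3 h.

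From 2 to 3 h in wild type, term fell by 2.27 (SE 0.35), Sry-alpha fell by 2.09 (SE 0.35), bnk fell by 1.92 (SE 0.21) and halo fell by 1.87 (SE 0.22). The adjusted p-values of these steps in limma ran from 4.11e-09 for bnk to 2.11e-05 for Sry-alpha. All 4 genes were called, which means an adjusted p under 0.05, against 12.2% of all features tested. By comparison, the median step of all features was 0.02 and that of the 4 genes -2.004.

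The wild type means of all 4 genes were lower at 6 h than at 3 h, and no test compared the genes with each other. From 3 to 6 h the steps of Sry-alpha (-0.93, adjusted p = 0.0918 in limma), term (-0.67, 0.275) and halo (-0.21, 0.67) were not called. Without replicate 3 the Sry-alpha step was called (-1.23, adjusted p = 0.0297). The step of bnk was -0.76 (SE 0.21, adjusted p = 0.0167), which made 1 of the 4 genes called against 7.24% of features. Its mean moved from -1.07 ± 0.04 to -1.83 ± 0.21 (SD, n = 3). The call was lost when all arrays numbered 1 (difference -0.64) or all numbered 2 (-0.81) were left out, and with array weights (-0.69, adjusted p = 0.0564). From 6 to 10 h halo fell by 1.14 (SE 0.22, adjusted p = 0.000228), again 1 of the 4 genes, against 12.6% of features. Its wild type values were -0.56, -0.62 and -0.72 at 6 h and -1.29, -2.09 and -1.94 at 10 h, with no overlap, an order whose share over all features was not computed. Without replicate 2 that step was -0.98 and was not called (adjusted p = 0.0701). Sry-alpha and bnk moved by 0.27 and 0.20 between 6 and 10 h, and term by -0.40, none of them called. Over the 7 times as a whole, each of the 4 genes was called in wild type (38.7% of features were), with a range of fitted means from 2.67 for bnk to 3.44 for term.

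**Figure D1:**
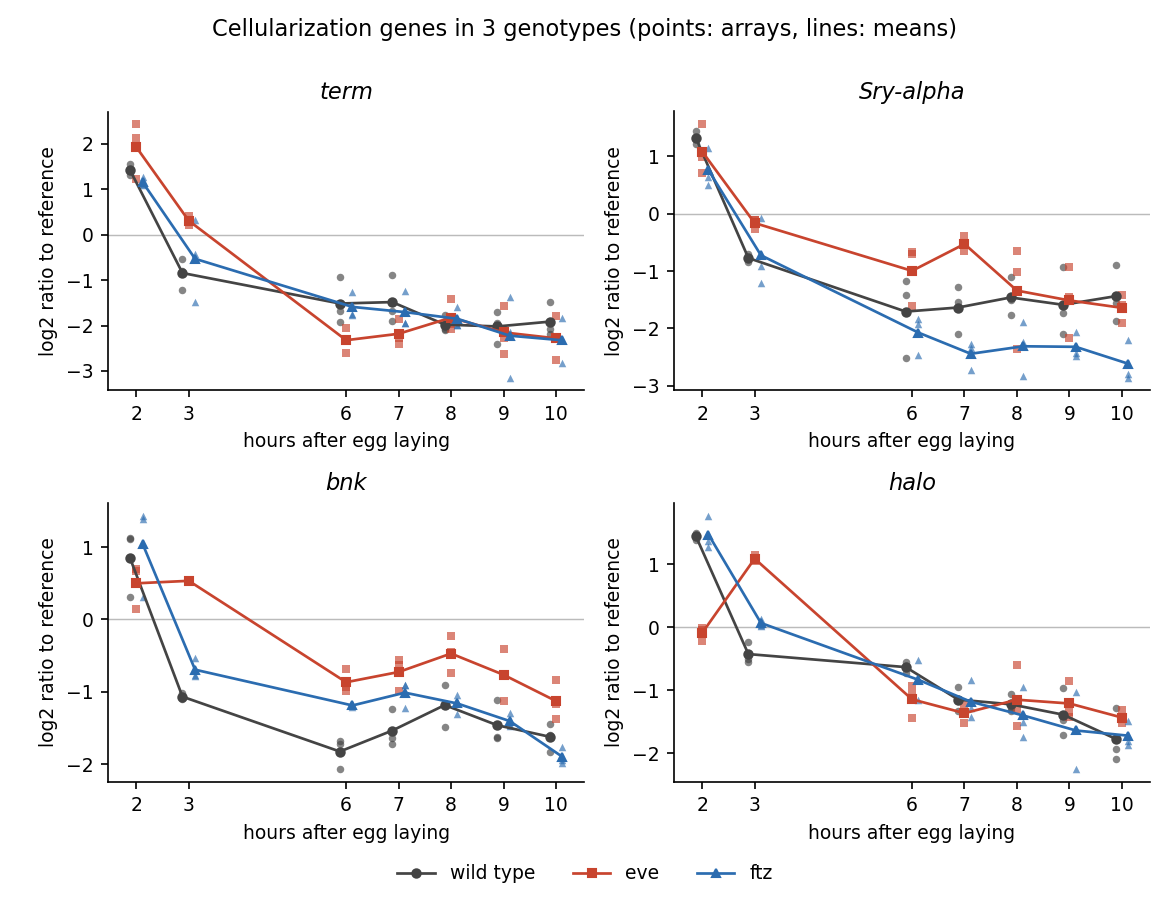
Deposited log2 ratio to the common reference (vertical axis) of term, Sry-alpha, bnk and halo against hours after egg laying (horizontal axis) in wild type, eve and ftz embryos; points are single arrays and lines join the means of 3 arrays. All 4 genes are highest at 2 h in wild type and ftz, while in eve halo is higher at 3 h (1.09) than at 2 h (-0.09).

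The early fall was also measured in ftz mutants. Their term values at 2 h were 1.27, 1.09 and 1.12, and at 3 h -1.49, -0.42 and 0.32, a wide spread at the later time. Sry-alpha stood at 1.15, 0.63 and 0.50, then at -0.90, -1.20 and -0.07. For bnk the ftz arrays gave 1.43, 1.38 and 0.31 at 2 h and -0.77, -0.78 and -0.53 at 3 h. The halo values were 1.77, 1.37 and 1.28 at 2 h and 0.04, 0.03 and 0.14 at 3 h. In each gene all 2 h arrays were above all 3 h arrays, an order whose share over all features was not computed. From 2 to 3 h bnk fell by 1.74 (adjusted p = 7.8e-08), term fell by 1.69 (0.000805), Sry-alpha fell by 1.49 (0.0028) and halo fell by 1.41 (1.92e-05), so all 4 were called against 8.92% of features. Without replicate 1 the steps of term (-1.15) and Sry-alpha (-1.20) were no longer called, and without replicate 2 that of Sry-alpha (-1.31) was not.

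From 3 to 6 h, 3 of the 4 genes fell further in ftz mutants, against 24.4% of features called. Sry-alpha fell by 1.35 (SE 0.35), term fell by 1.06 (SE 0.35) and halo fell by 0.90 (SE 0.22). The bnk step was -0.49 with an adjusted p of 0.0773 in limma. These 3 calls depended on single replicates: term was not called without replicate 2 (-0.93) or replicate 3 (-0.55), Sry-alpha without replicate 3 (-0.83) and halo without replicate 2 (-0.93). Sry-alpha was also not called with slide runs as a term (-0.75, adjusted p = 0.197), and in a fit of the compared groups alone term was not (adjusted p = 0.0876). The bnk step was called in that fit (adjusted p = 0.00594) and with array weights (-0.51, adjusted p = 0.021). From 6 to 10 h bnk fell by 0.71 and halo fell by 0.89, 2 of the 4 genes against 15.5% of features. Both calls were lost without replicate 2, at -0.66 and -0.84. The 7-time test called all 4 genes in ftz mutants (47.4% of features), with ranges from 2.94 for bnk to 3.48 for term.

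In the early step of eve the means of term and Sry-alpha fell, that of bnk hardly moved and that of halo rose. No test compared the genes with each other. The eve values of term went from 1.22, 2.43 and 2.14 at 2 h to 0.21, 0.41 and 0.30 on the arrays labelled eve at 3 h. Sry-alpha went from 0.70, 1.56 and 0.99 to -0.12, -0.11 and -0.26. Both genes fell without overlap of the arrays, term by 1.62 and Sry-alpha by 1.25 between the group means. The bnk values were 0.69, 0.14 and 0.66 at 2 h and 0.55, 0.52 and 0.54 at 3 h, so the later arrays lay inside the range of the earlier ones. The halo values were -0.04, -0.21 and -0.01 at 2 h and 1.06, 1.06 and 1.15 at 3 h, so every later array was above every earlier one. For such orders between times no share of all features was computed.

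In this step halo rose by 1.18 (SE 0.22, adjusted p = 9.32e-05), term had a difference of -1.62 (0.000519), Sry-alpha one of -1.25 (0.0064), and bnk one of 0.03 (0.935). That made 3 of the 4 genes called, against 23.6% of features. Without replicate 2 neither term (-1.42, adjusted p = 0.0714) nor Sry-alpha (-1.03, 0.136) was called. With slide runs as a term the step of term was -0.91 and that of Sry-alpha -0.27, neither of them called.

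From 3 to 6 h in eve, 3 of the 4 genes fell, against 26.2% of features called. The gene term fell by 2.63 (SE 0.35), halo fell by 2.24 (SE 0.22) and bnk fell by 1.40 (SE 0.21), with adjusted p-values from 3.05e-10 to 1.36e-06 in limma. With slide runs as a term the bnk step was -1.51 and was not called (adjusted p = 0.0782). The Sry-alpha step was -0.83 and was not called (adjusted p = 0.0693). It passed the threshold in a fit of the compared groups alone (0.0239), with array weights (-0.93, adjusted p = 0.00311), without replicate 3 (-1.03, adjusted p = 0.0286) and with slide runs as a term (-2.98, adjusted p = 0.0201). Between 6 and 10 h none of the 4 was called in limma, nor had any an unadjusted p under 0.05, against 12.9% of features called. Over the 7 times all 4 genes were called in eve (54.2% of features), with ranges from 1.66 for bnk to 4.25 for term.

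**Figure D2:**
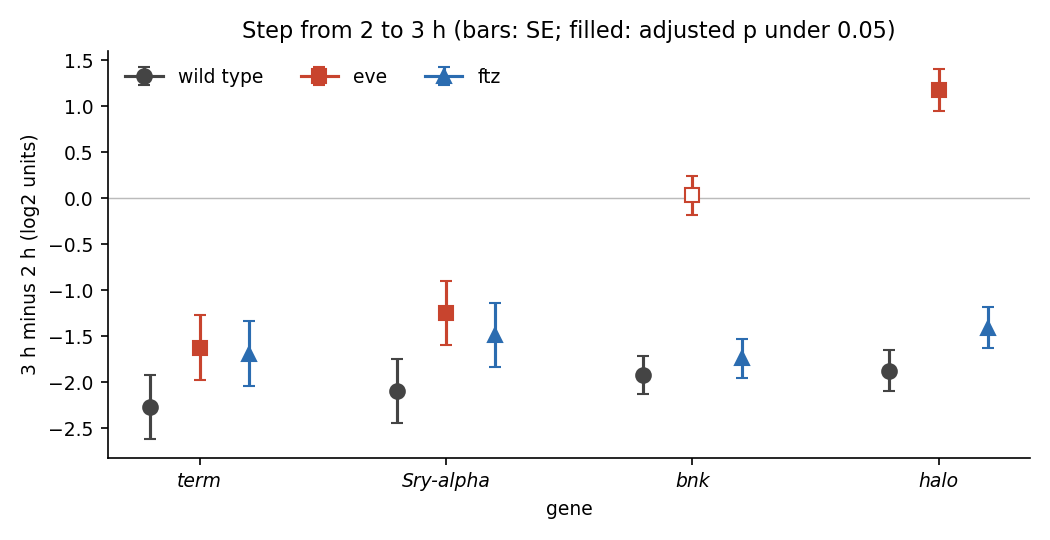
Fitted difference of 3 h minus 2 h in log2 units (vertical axis) for each gene in wild type, eve and ftz; bars are standard errors and filled symbols have an adjusted p under 0.05. The 4 wild type and 4 ftz steps lie between -2.27 and -1.41, while in eve bnk is at 0.03 and halo at 1.18.

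The difference of the early step between genotypes was tested directly. Between eve and wild type the step of halo differed by 3.05 (SE 0.32, adjusted p = 1.36e-09) and that of bnk by 1.95 (SE 0.30, adjusted p = 6.75e-06). The steps of Sry-alpha (0.85, adjusted p = 0.25) and term (0.65, 0.411) were not called, so 2 of the 4 genes were, against 15.9% of features. In a fit of the compared groups alone the Sry-alpha step was also called (SE 0.24, adjusted p = 0.0265), which makes 3 of the 4. The contrast of eve with ftz shares the eve arrays, and there the halo step differed by 2.58 and the bnk step by 1.77, again 2 of the 4 genes, against 16.5% of features. Between ftz and wild type none of the 4 steps was called in limma and none had an unadjusted p under 0.05, with 0.410% of features called. The differences there ran from 0.18 for bnk to 0.61 for Sry-alpha.

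The early arrays also differed in their place on the wild type profile. The arrays labelled eve at 3 h lay at 2.50 to 2.55 h on the wild type profile, those of wild type at 3 h at 2.85 to 4.05 h and those of ftz at 2.65 to 3.75 h. What part this has in the halo and bnk values was not tested. Taken from 2 to 6 h, which leaves the 3 h arrays out, all 4 genes fell in each genotype. All 4 were called in each, against 21.0% of features in wild type, 33.4% in eve and 28.8% in ftz. In eve halo then fell by 1.06 and bnk fell by 1.37. In wild type halo fell by 2.08 and bnk fell by 2.67, and in ftz halo fell by 2.31 and bnk fell by 2.23. The difference of this step between eve and wild type was called for bnk (1.31, adjusted p = 0.00171) and halo (1.02, adjusted p = 0.0239), with 13.4% of features called. Between eve and ftz it was called for halo (1.25), bnk (0.87) and term (-1.51), with 12.2% of features called. For halo, eve minus wild type was -1.54 at 2 h and -0.51 at 6 h, and for bnk it was -0.35 and 0.96. The step from 2 to 6 h uses the same eve arrays at 2 h, which stood apart on the wild type profile. It was added to the planned comparisons and was fitted only in the model of all arrays.

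At 2 h, halo was the 1 gene of the 4 called between genotypes. The eve arrays, at -0.04, -0.21 and -0.01, lay below every wild type and every ftz array. Of all features, 20.2% had all eve arrays below those of wild type and 20.7% had them below those of ftz. Against wild type the difference was -1.54 (SE 0.22, adjusted p = 1.19e-06), with 21.6% of features called, and against ftz it was -1.56 (adjusted p = 7.4e-07), with 22.6% called. With slide runs as a term these differences were -1.79 and -1.79 and stayed past the threshold, though no run holds these eve arrays with 2 h arrays of another genotype. In the same eve arrays term (0.51), Sry-alpha (-0.24) and bnk (-0.35) were not called against wild type. Against ftz the bnk difference was -0.54 with an adjusted p of 0.0528, and that of term was 0.77 with an adjusted p of 0.111 in limma. So the eve arrays at 2 h carried a high level of term, 1.93 ± 0.63 (SD, n = 3), the highest of its 21 group means, beside a halo level of -0.09 ± 0.11.

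No gene of the 4 was called between ftz and wild type at 2 h in limma, none had an unadjusted p under 0.05, and 6.10% of features were called. Sry-alpha had the widest difference, -0.56 (SE 0.35, adjusted p = 0.443), and its ftz arrays lay below every wild type array. The term arrays of ftz also lay below those of wild type, with a difference of -0.27 (adjusted p = 0.807). Of all features, 16.7% showed this order. For halo and bnk the differences were 0.03 and 0.20. In the run of slides numbered 63 to 71, which holds 3 ftz and 2 wild type arrays of 2 h, the differences were -0.20 for term, -0.50 for Sry-alpha, 0.33 for bnk and 0.03 for halo.

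At 3 h 3 of the 4 genes were called as higher on the arrays labelled eve than in wild type, against 9.57% of features. In all 4 genes the arrays labelled eve lay above every wild type array, an order that 20.2% of all features showed. The bnk difference was 1.60 (SE 0.21, adjusted p = 7.07e-07) and that of halo 1.52 (SE 0.22, adjusted p = 7.2e-06). For term it was 1.15 (SE 0.35, adjusted p = 0.0287), and for Sry-alpha 0.61 (SE 0.35, adjusted p = 0.304). The term call was lost in 7 of 9 settings that each left out a replicate of 1 or both genotypes, with differences from 0.92 to 1.36. Leaving out replicate 1 of wild type, alone or together with replicate 1 of the other groups, kept it. No run holds arrays labelled eve and arrays of another genotype at 3 h. With slide runs as a term, halo remained called (1.37, adjusted p = 0.0449), and bnk (1.68, adjusted p = 0.0596) and term (2.06, adjusted p = 0.184) were not. The Sry-alpha difference was then 2.09 (adjusted p = 0.148), and in a fit of the compared groups alone it was called at 0.61 (adjusted p = 0.00422).

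Against ftz at 3 h, 2 of the 4 genes were called, against 5.35% of features. The difference was 1.23 for bnk (adjusted p = 0.000148) and 1.02 for halo (adjusted p = 0.00331), with no overlap of the arrays in either gene. All arrays labelled eve lay above all ftz arrays in 18.7% of all features. Without replicate 2 the halo call was lost (1.01, adjusted p = 0.118), and with slide runs as a term neither bnk (1.20, 0.238) nor halo (0.95, 0.222) was called. The term arrays of ftz overlapped those labelled eve (0.84, adjusted p = 0.175), as did those of Sry-alpha (0.56, adjusted p = 0.419). The Sry-alpha difference was 2.605 with slide runs as a term (adjusted p = 0.0671). Between ftz and wild type at 3 h none of the 4 was called in limma, and 1, halo, had an unadjusted p under 0.05 (difference 0.49, unadjusted p = 0.0331), against 13.7% of features called. All 3 ftz arrays were above all wild type arrays for halo and for bnk (0.37), as in 19.2% of all features.

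**Figure D3:**
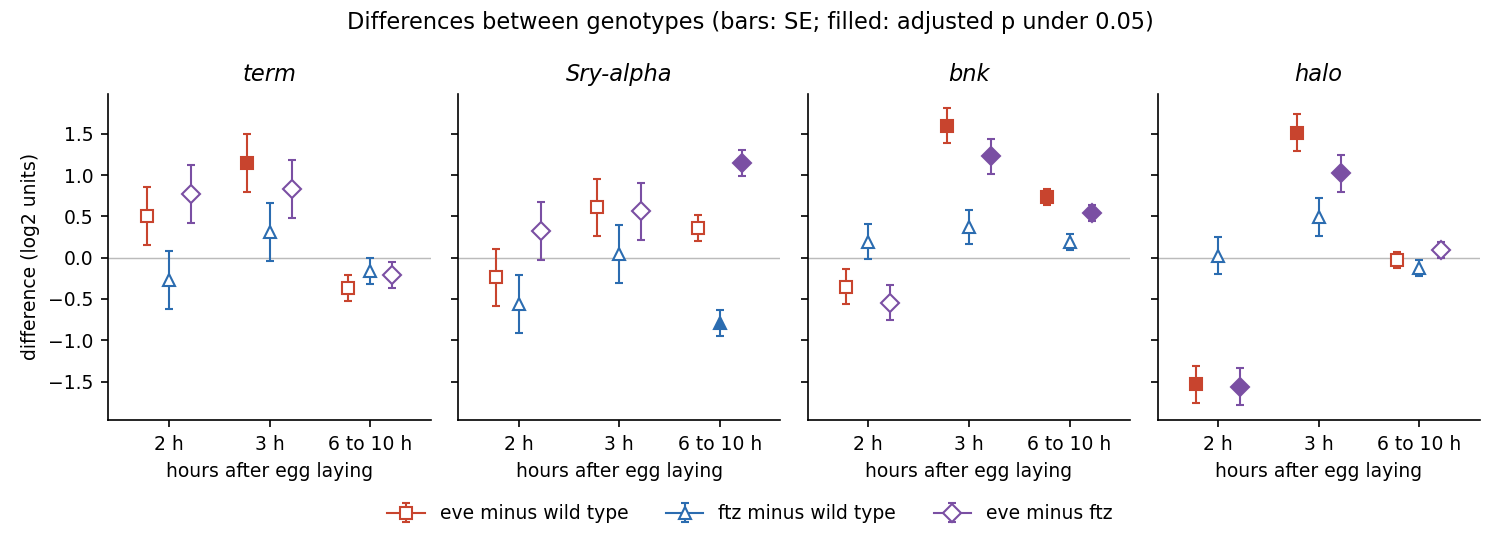
Fitted differences between genotypes in log2 units (vertical axis) for each gene at 2 h, at 3 h and over 6 to 10 h (horizontal axis); bars are standard errors and filled symbols have an adjusted p under 0.05. The difference of halo between eve and wild type is -1.54 at 2 h, 1.52 at 3 h and -0.03 over 6 to 10 h, and that of Sry-alpha between eve and ftz is 1.15 over 6 to 10 h.

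Over 6 to 10 h, when all 4 genes were below the reference on every array, bnk and Sry-alpha differed between genotypes, and term and halo did not pass the test. Each genotype has 15 arrays over these 5 times. In wild type the lowest, median and highest bnk values were -2.07, -1.63 and -0.90. In eve they were -1.38, -0.77 and -0.23, and in ftz -1.99, -1.22 and -0.91. The eve arrays were high: 9 of 15 lay above every wild type array, and the arrays did not overlap at 4 of the 5 times, 9 h being the exception. The share of all features with such orders was computed only between genotypes at 2 and 3 h. These counts and those below therefore describe the arrays only.

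The mean difference of bnk between eve and wild type was 0.73 (SE 0.09, adjusted p = 2.36e-08), from 0.49 at 10 h to 0.96 at 6 h. It made 1 of the 4 genes called, against 39.4% of features, so calls were common among all features in this comparison. With the place on the wild type profile as a covariate the difference was 0.70 (adjusted p = 4.41e-05). Averaging the 5 times into 3 values per genotype left it at 0.73 (adjusted p = 0.00185). With slide runs as a term it was 0.68 and was not called (adjusted p = 0.108), and no run holds eve and wild type arrays of a shared time. Against ftz, bnk was higher in eve by 0.54 (SE 0.09, adjusted p = 1.41e-05, or 0.00976 with averaged times), at all 5 times. Within the run of slides numbered 37 to 45, which holds 3 eve and 3 ftz arrays of 3 times, that difference was 0.58.

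Sry-alpha was lower in ftz than in wild type and in eve in the model of all arrays. Its lowest, median and highest values over the 15 arrays were -2.86, -2.34 and -1.83 in ftz. In wild type they were -2.52, -1.54 and -0.89, and in eve -2.35, -1.02 and -0.38. The ftz arrays were low: at 7, 8 and 10 h each lay below every wild type array, and 12 of the 15 eve arrays lay above every ftz array. How many of all features show such orders was not computed. Relative to wild type, Sry-alpha was lower in ftz by a difference of -0.79 (SE 0.16, adjusted p = 6.27e-05), negative at all 5 times and from -1.18 at 10 h to -0.37 at 6 h. It was the 1 gene of the 4 called between ftz and wild type, against 40.4% of features. The difference was -0.83 with the profile covariate, -1.37 with slide runs as a term and -1.12 within the run of slides numbered 6 to 15, which holds 3 ftz and 2 wild type arrays of 2 times. With the 5 times averaged its adjusted p was 0.0151.

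Between eve and ftz the Sry-alpha difference was 1.15 (SE 0.16, adjusted p = 1.4e-07, or 0.00487 with averaged times), positive at all 5 times and widest at 7 h (1.91). With bnk it made 2 of the 4 genes called, against 36.0% of features. This value was smaller when slides were taken into account: with runs as a term it was 0.61 (adjusted p = 0.129), and within the run of slides numbered 37 to 45 it was 0.34. That run holds the eve arrays of replicate 3 at 8, 9 and 10 h, whose Sry-alpha values of -2.35, -2.17 and -1.91 are the lowest of the eve series. Between eve and wild type the Sry-alpha difference was 0.36 (SE 0.16, adjusted p = 0.0582), not called. It ran from 0.04 to 0.69 when replicates were left out, was called without eve replicate 3 (0.51) or wild type replicate 3 (0.54), and turned to -0.76 (adjusted p = 0.276) with slide runs as a term.

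**Figure D4:**
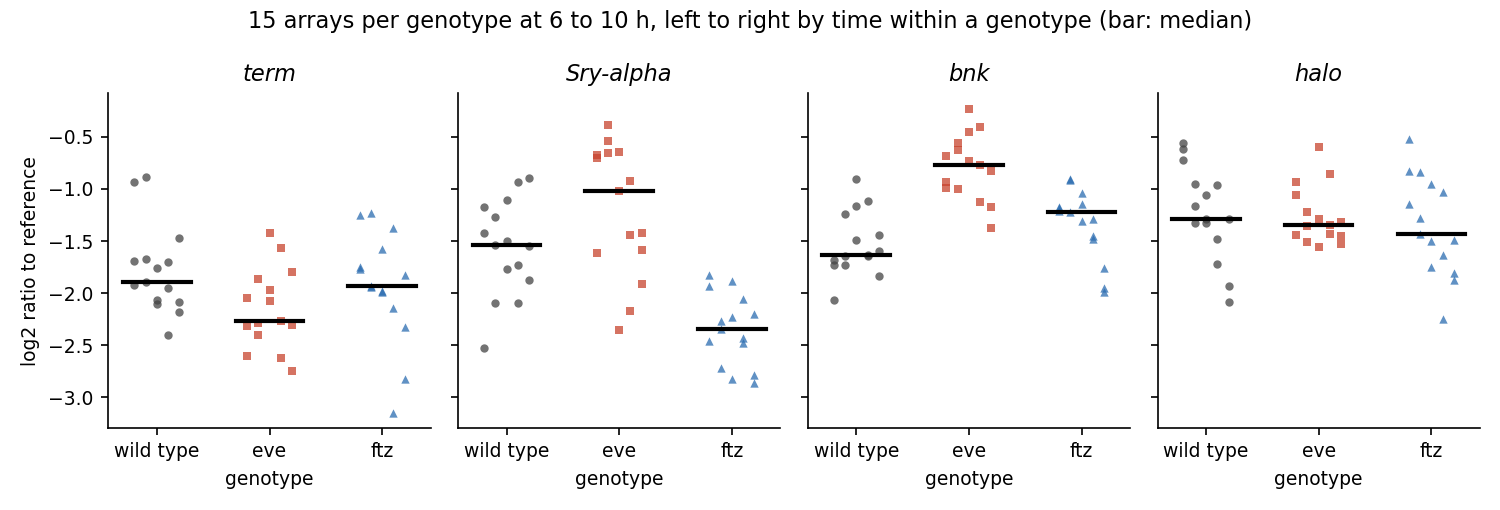
Deposited log2 ratio (vertical axis) of each of the 15 arrays per genotype at 6 to 10 h, in order of time from left to right within a genotype, for term, Sry-alpha, bnk and halo; bars are medians. The bnk median is highest in eve (-0.77), and the Sry-alpha median is lowest in ftz (-2.34).

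The level of term over 6 to 10 h had medians of -1.89 in wild type, -2.26 in eve and -1.94 in ftz, and the arrays overlapped widely. Its differences were -0.37 between eve and wild type (adjusted p = 0.0563), -0.16 between ftz and wild type (0.448) and -0.21 between eve and ftz (0.302). At 6 h, however, the eve arrays, at -2.60, -2.05 and -2.32, lay below every wild type and ftz array. The halo medians were -1.29, -1.34 and -1.43 in wild type, eve and ftz. Its differences of -0.03, -0.12 and 0.09 in the same order of comparisons were not called, and again the eve arrays were below all wild type arrays at 6 h, at -1.44, -1.06 and -0.93. How many of all features show such orders at 6 h was not computed.

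Whether the course between 6 and 10 h itself differed between genotypes was tested by the step from 6 to 10 h and by the variation of the difference over the 5 times. None of the 4 genes was called in limma in any of these 6 tests in the model of all arrays. For the step, 1.12% of features were called between eve and wild type, 2.32% between ftz and wild type and 0.990% between eve and ftz. For the variation over the 5 times the shares were 1.42%, 1.08% and 0.386%. At an unadjusted p under 0.05 stood 1 gene in the step of eve against wild type (halo, 0.85, unadjusted p = 0.0102), 1 in the step of ftz against wild type (bnk, -0.91, 0.00335) and 1 in the variation of ftz against wild type (bnk, 0.0185), and none in the other 3 tests. Of these, the bnk step passed the threshold in a fit of the compared groups alone (-0.91, adjusted p = 0.0355), and the halo step did so with slide runs as a term (0.95, adjusted p = 0.0423).

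In the order of the 21 group means, the 2 h groups of all 3 genotypes held the first 3 places for term and Sry-alpha. The order of term was eve (1.93), wild type (1.42) and ftz (1.16). Of these neighbours wild type and eve overlapped. The ftz arrays all lay below those of wild type, as in 16.7% of all features. For Sry-alpha it was wild type (1.32 ± 0.12), eve (1.08 ± 0.44) and ftz (0.76 ± 0.34), whose spreads leave the neighbours undistinguished. The bnk order began with ftz at 2 h (1.04 ± 0.63), wild type at 2 h (0.85 ± 0.47), eve at 3 h (0.53 ± 0.02) and eve at 2 h (0.50 ± 0.31), neighbours that overlap. The halo order began with ftz (1.47 ± 0.26) and wild type at 2 h (1.45 ± 0.06), then eve at 3 h (1.09 ± 0.05), with eve at 2 h in the fifth place at -0.09 ± 0.11. At the low end stood ftz at 10 h for term (-2.32), Sry-alpha (-2.62) and bnk (-1.90), and wild type at 10 h for halo (-1.77), each within an SD of its neighbour's mean.

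Over the 21 group means the 4 genes correlated with each other at r from 0.816 (Sry-alpha with halo) to 0.886 (term with halo). These correlations describe means that share the same arrays and one common early fall. Among the other named genes, the patterns most like that of bnk were Elba3 (r = 0.952), Sqor (0.948), Nin (0.942), plu (0.930) and Elba2 (0.929). Elba2 and Elba3 encode parts of an insulator complex of the early embryo, and plu is a maternal regulator of the first nuclear cycles. Nearest to halo were CG9471 (0.968), CG2100 (0.963), ea (0.963), which encodes the protease easter of the dorsal-ventral pathway, Oxp (0.950) and CG6066 (0.947). Nearest to term were CG7271 (0.989), bard (0.966), Uch-L5 (0.960), and the proteasome subunits Prosbeta5 (0.958) and Prosalpha2 (0.954). Nearest to Sry-alpha were Iru (0.962), CG14915 (0.956), Sqor (0.946), ref(2)P (0.943) and CG4880 (0.942). Over the 7 wild type means alone, the closest genes were HisRS, Prosalpha6 and CSN1b for term (r of 0.995 or more), S2P, CG5003 and Paf-AHalpha for Sry-alpha (0.996 or more), CG4404, Prosalpha4 and DMAP1 for bnk (0.988 or more) and CG14111, CG42553 and Oxp for halo (0.992 or more).

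Of 12 other zygotic genes of cellularization and the blastoderm on a list, 5 had values: nullo, which acts on the furrow actin network beside Sry-alpha and bnk, trbl, which delays mitosis in the embryo, Ocho of the Bearded family, Elba2 and Elba3. In wild type, Elba2 fell by 2.36 and Elba3 fell by 2.36 from 2 to 3 h, and nullo fell by 0.69, against 12.2% of features called. Ocho (0.66) and trbl (-0.46) were not called. In eve the same step was 0.27 for Elba2 and 0.09 for Elba3, neither called, like that of bnk, with 23.6% of features called. Both are among the genes nearest to bnk over means of these same arrays, so this likeness is not a separate result. At 2 h Elba2 (-1.55) and Elba3 (-1.14) were lower in eve than in wild type, as halo was, against 21.6% of features called. At 3 h both were higher on the arrays labelled eve (1.08 and 1.32), against 9.57% of features. None of the other 3 was called in either comparison.

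Over 6 to 10 h, 4 of these 5 genes were higher in eve than in wild type and none was lower, with a list median of 0.33 against 0.00 over all features and 39.4% of features called. The differences were 0.74 for Elba2, 0.72 for Elba3, 0.33 for nullo and 0.26 for Ocho, and trbl had 0.06 (adjusted p = 0.529). Those of Elba2 and Elba3 are of the size seen for bnk (0.73). Against ftz all 5 were higher in eve, from 0.30 for nullo to 0.75 for Elba3, with 36.0% of features called. Between ftz and wild type 1 of 5 was called, trbl, lower by a difference of -0.36, against 40.4% of features.

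**Figure D5:**
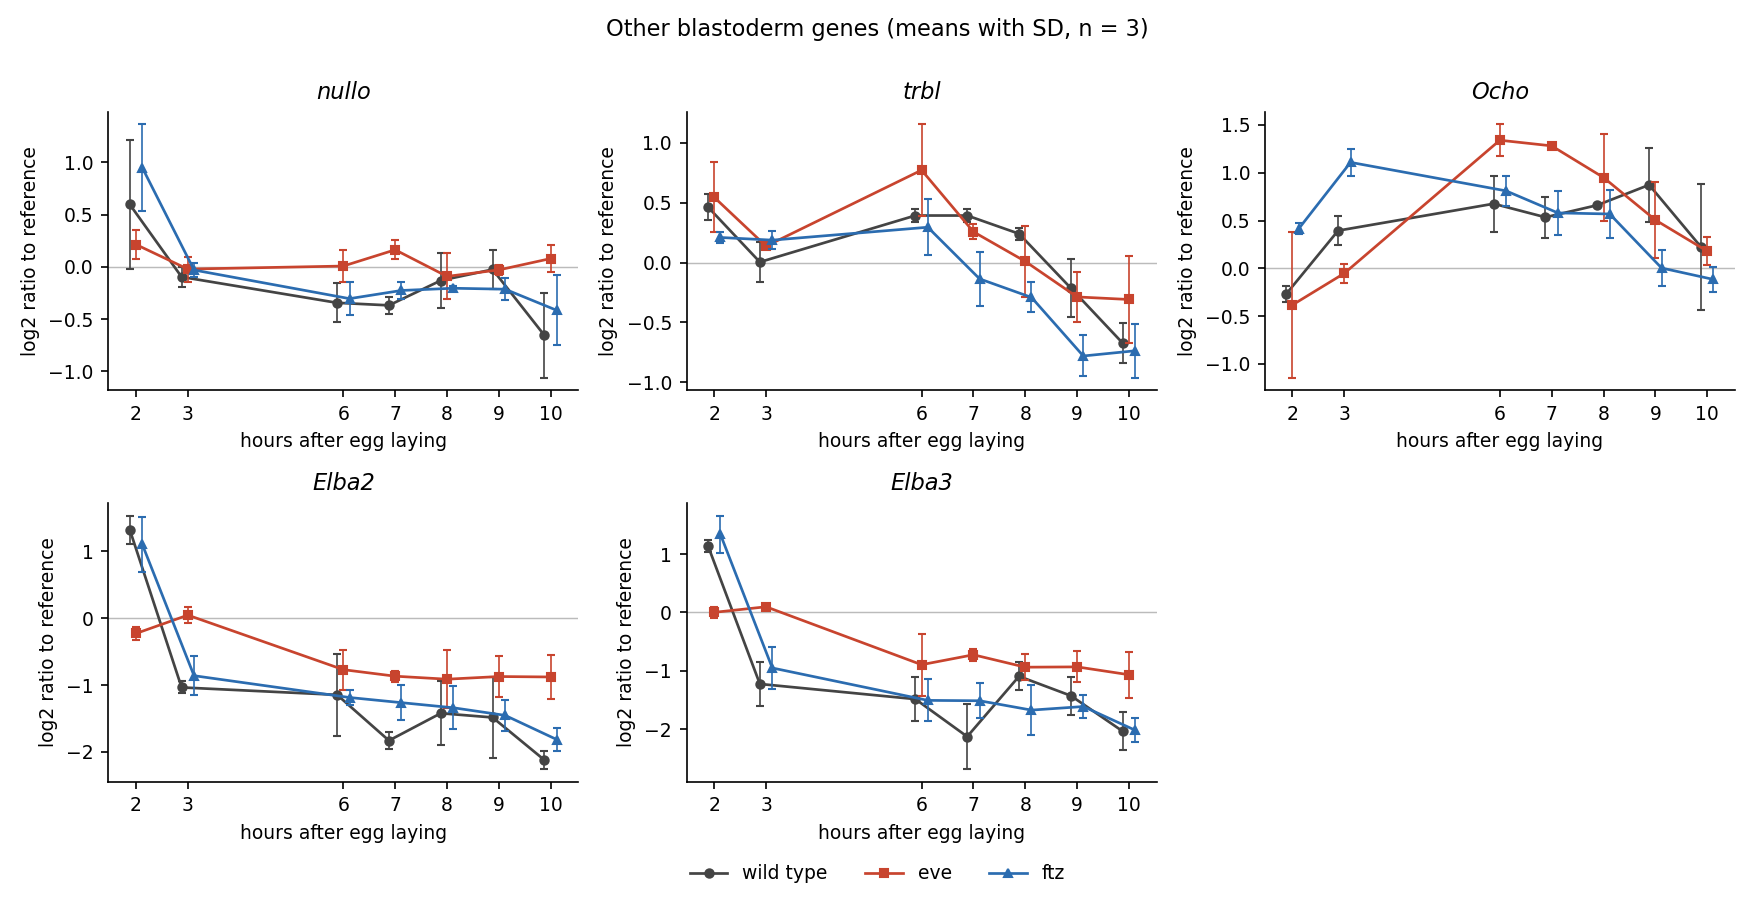
Means of 3 arrays with SD (vertical axis, log2 ratio to the reference) of nullo, trbl, Ocho, Elba2 and Elba3 against hours after egg laying (horizontal axis) in wild type, eve and ftz. Elba2 and Elba3 in eve, at -0.23 and 0.00, lie below wild type at 2 h and above it at 3 h.

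Of 24 listed furrow and actomyosin genes, 15 had values. Over 6 to 10 h 1 was higher and 4 were lower in eve than in wild type, and 1 was higher and 6 lower in ftz than in wild type, with list medians of -0.12 and -0.11. These 5 and 7 of 15 genes stand against 39.4% and 40.4% of all features called, so their shares are near the background. The widest of these was cher, the actin crosslinker filamin, at -0.69 in both mutants. Also lower were the formin dia (-0.19 in eve, -0.25 in ftz) and scra, which encodes anillin (-0.18 and -0.32). Septin1 was lower in ftz (-0.44). In eve against ftz 2 were higher and 1 lower (36.0% of features). At 2 h, 1 was higher and 3 lower in eve than in wild type (21.6%), and at 3 h the count was again 1 and 3 (9.57%). In ftz against wild type none was higher at either time, and 1 at 2 h (6.10%) and 3 at 3 h (13.7%) were lower.

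Among 8 of 9 listed genes of lipid droplet transport, the process in which halo acts, 3 were higher and 1 was lower in eve than in wild type over 6 to 10 h, against 39.4% of features called. Jabba, which anchors histones on droplets, differed by 0.56, the dynein heavy chain Dhc64C by 0.20, the kinesin light chain Klc by 0.16 and the dynactin subunit DCTN1-p150 by -0.22. In ftz against wild type Klc was higher (0.27) and the dynein adaptor BicD lower (-0.34), 2 of 8 against 40.4% of features. At 2 h klar (0.49), Dhc64C (0.66) and DCTN1-p150 (0.44) were higher in eve than in wild type and none was lower, against 21.6% of features. At 3 h Dhc64C was lower (-0.57) and none was higher, against 9.57% of features.

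Lists of stage and tissue genes also moved with these groups, and their part in the results above was not tested. Of 11 maternal transcripts, 6 were higher and 3 lower in eve than in wild type over 6 to 10 h, none was higher and 4 were lower in ftz than in wild type, and 6 were higher and none lower in eve than in ftz. The shares of all features called in these comparisons, in either direction, were 39.4%, 40.4% and 36.0%. At 3 h 1 was higher and none lower on the arrays labelled eve than in wild type, with a median difference of 0.04 and 9.57% of features called. Of 4 pole cell and germline genes with values, 1 was higher and none lower in eve, and likewise in ftz, against wild type over 6 to 10 h. Of 9 late differentiation genes of neurons, muscle and trachea, 3 were higher and 2 lower in eve, and 5 higher and 2 lower in ftz, against wild type. At 2 h 3 of the 9 were higher and 1 lower in eve than in wild type (median difference 0.48, 21.6% of features called). On the arrays labelled eve at 3 h none was higher and 1 was lower (median -0.26). Their step from 2 to 3 h was called as lower in eve than in wild type for 3 and higher for none (median -1.01, 15.9% of features called). The mean shift on the wild type profile over 6 to 10 h was 0.947 h in eve and 0.987 h in ftz, against -0.140 h in wild type. The profile ended at 10 h, so arrays labelled 10 h could not be placed later than their label. This limits these means and the covariate made from the same places.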

How the data were processed

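Ratios of 63 two-colour arrays (21 groups of 3) were analysed. The deposited log2 values had been processed by the authors with limma, per the submitters' processing notes. Neither these notes nor the labels give the base, the side of the ratio, the annotation build or the within-array steps. The sorted values of all arrays were equal to within 0.000784, so no further normalization was applied. Of 20000 rows, 13228 had values; 10096 carried 1 symbol, 220 several and 2912 none, and 10093 symbols were updated by gene ID. Rows of one symbol were averaged, which gave 12424 features and 9292 named genes.

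A model with 1 mean per group was fitted with limma 3.58.1 in R 4.3.3 (statmod 1.5.0) to all arrays, with 42 residual degrees of freedom, empirical Bayes, two-sided tests and Benjamini-Hochberg adjustment over all features within each comparison at 0.05. Values over 6 to 10 h are means of 5 group differences. The method was tested on simulated data in which arrays varied independently, so that test does not cover slide runs or replicate series.

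Named were the 4 genes in every comparison, eve and ftz, the 5 genes nearest to each over 21 means and the 3 nearest over 7 wild type means, all measured genes of the zygotic list, and up to 4 called genes of the furrow and the lipid droplet lists; those named from these lists at 2 and 3 h were chosen after their values were seen. The members and lists were chosen with earlier results of these data known. Same-numbered arrays of different genotypes did not deviate together (r from -0.260 to 0.168), so the numbers do not pair them. Within a genotype, same-numbered arrays of different times over 6 to 10 h had a median r of 0.221 in wild type, 0.126 in eve and 0.112 in ftz. The model of all arrays treats these arrays as independent. Alternatives were a fit of the compared groups alone, robust variance with trend, array weights, a filter on SD, single rows, left-out replicates, slide runs, replicate blocks, averaged times and the place on the wild type profile. The rows shared by Sry-alpha with Sry-beta or Sry-delta were left out because they name no single gene.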

Additional observations from a re-analysis of the deposited data

Results flagged for a closer look

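The step from 2 to 3 h of halo and bnk in eve mutants differed from that in the other genotypes by a direct test in limma. Against wild type the step differed by 1.9508 for bnk (adjusted p = 6.75e-06) and by 3.0518 for halo (adjusted p = 1.36e-09). Against ftz it differed by 1.7733 for bnk (adjusted p = 2.56e-05) and by 2.5846 for halo (adjusted p = 8.13e-08). The direction was the same on every array for halo, since all 3 h arrays labelled eve lay above all eve arrays of 2 h, while in wild type and ftz all 3 h arrays lay below those of 2 h. The share of all features with such orders between times was not computed. Each of these 4 differences kept its call in every alternative fit that was run, slide runs and left-out replicates included. The fit with slide runs cannot separate slides from the eve step, because no run holds early eve arrays with early arrays of another genotype. The eve transcript on the arrays labelled eve at 3 h did not differ from wild type by the test, and the eve arrays at 2 h correlated less with wild type than other early arrays. What part either has in these values was not tested.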

How the results depend on the processing

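No call of the 4 genes turned its direction in any alternative. Of the values of group comparisons under alternatives, 578 kept their side of the threshold, 28 passed it newly and 14 lost it, and of those of steps, time courses and step differences 810 kept it, 10 passed it newly and 20 lost it. With slide runs as a term, calls were lost at 3 h for term (2.06) and bnk (1.68) between eve and wild type and for bnk (1.20) and halo (0.95) between eve and ftz, and over 6 to 10 h for bnk between eve and wild type (0.68) and for Sry-alpha between eve and ftz (0.61). The cause was not tested. Fits of the compared groups alone added calls for Sry-alpha at 3 h (0.61) and term over 6 to 10 h (-0.37) between eve and wild type, and for bnk (0.37) and halo (0.49) at 3 h and bnk over 6 to 10 h (0.19) between ftz and wild type. Array weights added term at 3 h between eve and ftz (0.89) and Sry-alpha over 6 to 10 h between eve and wild type (0.41). The SD filter, which tests fewer features, added bnk at 2 h between eve and ftz (-0.54) and, over 6 to 10 h between eve and wild type, term (-0.37) and Sry-alpha (0.36).

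When replicates were left out, these differences changed side and ranged as follows. Between eve and wild type bnk at 2 h ran from -0.715 to -0.036, term at 3 h from 0.92 to 1.36, and over 6 to 10 h term ran from -0.51 to -0.17 and Sry-alpha from 0.041 to 0.692. Between ftz and wild type over 6 to 10 h bnk ran from 0.057 to 0.271 and halo from -0.318 to 0.029. Between eve and ftz at 2 h term ran from 0.48 to 1.18 and bnk from -0.99 to -0.20, halo at 3 h from 0.99 to 1.06, and over 6 to 10 h term from -0.55 to 0.15 and halo from -0.15 to 0.37. The added calls all came from settings without a replicate 1 or a replicate 3. The numbers do not pair the arrays across genotypes. A replicate block added 1 call, bnk at 2 h between eve and ftz (-0.54, adjusted p = 0.0479), and changed no other call of the 4 genes.

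Counts over all features moved more. Over 6 to 10 h, 4901 features differed between eve and wild type, 5023 between ftz and wild type and 4477 between eve and ftz. With slide runs these counts were 926, 1531 and 860, with a random block of replicate series 3154, 3211 and 2606, with averaged times 2191, 2354 and 1598, and with the profile covariate 2386, 2642 and 4169. With slide runs the 2 h counts went from 2682 to 1362 (eve and wild type) and from 2810 to 1620 (eve and ftz), and the 3 h counts from 1189 to 120 and from 665 to 177. Array weights raised the counts of eve and wild type at 3 h to 2571, of ftz and wild type from 758 to 2432 at 2 h and from 1704 to 2802 at 3 h, and of eve and ftz at 3 h to 3649. In the fit of the compared groups alone they were 1907, 1416, 1748 and 1735. Counts of the other tests ran from 0.146 times to 12.6 times the count of the model of all arrays over the settings tried.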
